A study of Mus musculus with 9 samples.

Results

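Cytosolic ribosomal protein genes were taken as the gene symbols that begin with Rpl or Rps followed by a digit, together with Rplp0, Rplp1, Rplp2 and Rpsa. Pseudogene symbols, the Rps6k kinases and Rps19bp1, which are no ribosomal proteins, were left out. The rule used names alone and found 88 of 24736 genes, 54 named for the large subunit and 34 named for the small subunit or Rpsa. All 88 matched the GENCODE M21 annotation of GRCm38, where 85 are protein coding, Rpl37rt and Rps4l are transcribed processed pseudogenes and Rpl32l is a processed pseudogene. A filter on low counts kept 86 of the 88 among 13890 genes. Rpl3l, the striated muscle paralog of Rpl3, was at 0 in all 9 libraries, and Rpl32l had at most 16 counts in a library.

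RNA was measured in oocytes arrested at the second meiotic metaphase, with 1 library of 15 oocytes per mouse and 3 mice per group. KYZY mice were ICR females that went through 6 weeks of daily stressors and then took the herbal decoction Kai Yu Zhong Yu (KYZY) by gavage, 0.1 ml a day for 4 weeks. Stress mice were ICR females that went through the same 6 weeks of tail pinch, cold swimming, loss of food or water, wet bedding, constant light or restraint. Control mice were ICR females left unstressed. The labels give the same age of 4 to 5 weeks for every group. All mice were superovulated with 7.5 IU of PMSG and 7.5 IU of hCG, and the oocytes were taken 16 h later and stripped of cumulus cells with hyaluronidase. No group received stress and a vehicle gavage, the KYZY mice had 4 more weeks before collection, and the labels describe the sequencing of the KYZY libraries differently from that of the stress and control libraries, so that these conditions and the recipe cannot be told apart. The labels tie each library to its own mouse, so the spread below is one between libraries of different mice. With 1 library per mouse, differences between mice and differences between library preparations cannot be told apart.

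Totals per library ran between 46324094 (KYZY 3) and 106990821 (stress 2) counts. Values are given as CPM, the counts of a gene per 1000000 of the effective library total (TMM scaling), and the values of a group follow the order of its libraries 1, 2 and 3. The 20 oocyte markers were above 0 in all 9 libraries and summed to 63160 to 102077 CPM, of which Zbed3 alone gave 36106 to 53307 CPM. In such bulk samples a difference in the number of cells of a type and a difference in RNA per cell cannot be told apart.

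A cytosolic ribosome is built from ribosomal RNA and about 1 copy each of these proteins in a large and a small subunit. The large subunit joins amino acids and the small subunit reads the mRNA, while the acidic stalk of Rplp0, Rplp1 and Rplp2 calls in the elongation factors. Messages of ribosomal proteins begin with a run of pyrimidines, the 5′ terminal oligopyrimidine (TOP) tract, through which the kinase complex mTORC1 and the RNA-binding protein Larp1 set their translation and storage. A growing oocyte makes and stores ribosomes for the embryo, and the fully grown oocyte no longer transcribes.

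The start regions of 67 members had an entry in RefSeq (GRCm38.p6), 10 of them with several entries, of which the first was used. An uninterrupted run of at least 8 C or T covered the annotated start in 23.9% of the 67 members and in 3.81% of 27025 promoters. A run of at least 8 lay within 30 bases of the start in 49.3% of members and in 22.8% of all promoters. For 8 members the window of 50 bases, 30 before the start and 20 from the start on, is shown with the longest run near the start in capitals. Rpl7a, Rpl27a, Rpl35 and Rpl15 were chosen for the longest runs over the start. Rps15a and Rpl4 were taken from the members whose levels differed little between libraries, and Rps19 and Rps3 from those that differed most, as described further on.
Rpl7a: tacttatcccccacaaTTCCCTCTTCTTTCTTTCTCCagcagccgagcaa
Rpl27a: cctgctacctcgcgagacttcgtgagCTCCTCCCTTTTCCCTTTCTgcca
Rpl35: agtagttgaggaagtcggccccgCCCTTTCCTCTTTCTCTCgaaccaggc
Rpl15: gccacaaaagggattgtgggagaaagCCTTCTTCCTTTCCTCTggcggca
Rps15a: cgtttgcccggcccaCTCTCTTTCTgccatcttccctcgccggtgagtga
Rpl4: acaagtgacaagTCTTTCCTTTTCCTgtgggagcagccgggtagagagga
Rps19: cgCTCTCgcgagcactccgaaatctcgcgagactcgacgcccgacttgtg
Rps3: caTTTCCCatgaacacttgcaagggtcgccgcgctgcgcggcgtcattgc
The windows lie on GRCm38.p6 at chr2:26910777-26910826 (plus strand, Rpl7a), chr7:109519165-109519214 (plus strand, Rpl27a), chr2:39005112-39005161 (minus strand, Rpl35) and chr14:18270967-18271016 (minus strand, Rpl15). Those of the other members are chr7:118116128-118116177 (minus strand, Rps15a), chr9:64173357-64173406 (plus strand, Rpl4), chr7:24884562-24884611 (plus strand, Rps19) and chr7:99483690-99483739 (minus strand, Rps3). The runs of Rpl7a, Rpl27a, Rpl35 and Rpl15 were 21, 20, 18 and 17 bases long and lay over the start. The longest run near the start of Rps19 was 5 bases and that of Rps3 was 6 bases. It was 6 bases in Rpl37 and 9 bases in Rpl39l, which differed less between libraries than Rpl4, whose longest run was 14 bases. A window without a run says only that these letters are not beside the annotated start. Among the whole 300-base promoters, searched on both strands, the Ets core CCGGAA was found in 49.3% of members and in 15.2% of all promoters. The YY1 core ATGGCG, which can overlap a start codon, was found in 28.4% of members against 9.24%, the Sp1 box GGGCGG in 58.2% against 35.9%, and the TATA box TATAAA in 10.4% against 14.2%.

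A few members held much of the summed level of the ribosomal protein genes in these libraries. Per kilobase of the shortest principal transcript, the 10 members of highest mean level held 58.0% of the summed level of all 88. In the large subunit these were led by Rpl37rt, Rpl17, Rpl4, Rpl13 and Rpl41, at means over the 9 libraries of 450.2, 279.6, 214.8, 160.6 and 141.7 CPM per kilobase. In the small subunit Rps12, Rps27l, Rps15a and Rps28 were among the leading genes, at 228.4, 211.7, 206.6 and 82.8 CPM per kilobase. The median of the large subunit members was 14.96 and that of the small subunit members 20.04 CPM per kilobase. The level of Rpl37rt, a retrocopy of Rpl37, rests on an annotated transcript of only 294 bases, and its longest one has 682 bases. That of Rps15a rests on 640 bases, and its longest principal transcript has 5179. The place of Rps15a among the leading genes thus depends on the transcript taken.

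Most members differed several-fold between libraries, including libraries of the same group. The range of a gene is given here as log2(CPM + 0.5) in its highest library minus that in its lowest, where the added 0.5 CPM dampens the ranges of low genes. The median range was 3.21 among the 86 members kept, a 9.26-fold difference, and 1.08 among all 13890 genes, a 2.11-fold difference. A range of at least 2 was found in 63 members (73.3%) and in 10.7% of all genes, and a range under 1 in 6 members (6.98%) and in 43.5% of all genes. Small subunit members had a median range of 3.33 and large subunit members one of 3.02. Within the KYZY group alone the median range of members was 2.53, against 0.63 for all genes. Within the stress group it was 1.29 against 0.54, and within the control group 2.18 against 0.64.

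The widest ranges belonged to Rps19, Rps27a and Rps3. Rps19, whose human gene is mutated in Diamond-Blackfan anaemia, was at 2.54, 27.2 and 68.4 CPM in the KYZY libraries, at 0.196, 10.23 and 4.42 CPM in the stress libraries, and at 0, 2.64 and 31.7 CPM in the control libraries. Its groups overlapped, with KYZY 3, control 3 and KYZY 2 high and control 1 and stress 1 at or near 0. Rps27a, which encodes ubiquitin fused to a ribosomal protein, was at 3.06, 51.7 and 97.4 CPM in the KYZY libraries, at 0.846, 12.1 and 11.3 CPM in the stress libraries and at 0.860, 2.98 and 59.6 CPM in the control libraries. Rps3, which lines the mRNA entry channel, was at 2.23, 42.0 and 66.6 CPM in the KYZY libraries, at 0.491, 10.3 and 9.90 CPM in the stress libraries and at 0.694, 3.49 and 37.7 CPM in the control libraries. The same 3 libraries were the high ones for all of these genes, and each group held a library of low level.

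Rpl26 and Rps15a were among the members of narrowest range. Rpl26 was near the detection floor in every library, at 0.0310 to 0.265 CPM, so that its narrow range is set by the added 0.5 CPM. Rps15a was at 121, 126 and 112 CPM in the KYZY libraries, at 134, 152 and 127 CPM in the stress libraries and at 169, 134 and 114 CPM in the control libraries. The highest library of Rps15a, control 1, was 1.504-fold above the lowest one, KYZY 3, on the CPM + 0.5 scale. Rpl4, a protein of the peptide exit tunnel and the member of highest CPM, was at 383, 396 and 357 CPM in the KYZY libraries, at 279, 341 and 316 CPM in the stress libraries and at 398, 207 and 297 CPM in the control libraries. Its KYZY libraries were all above its stress libraries, and its control libraries spanned both. Rpl37 and Rpl39l also had ranges under 1.

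**Figure D1:**
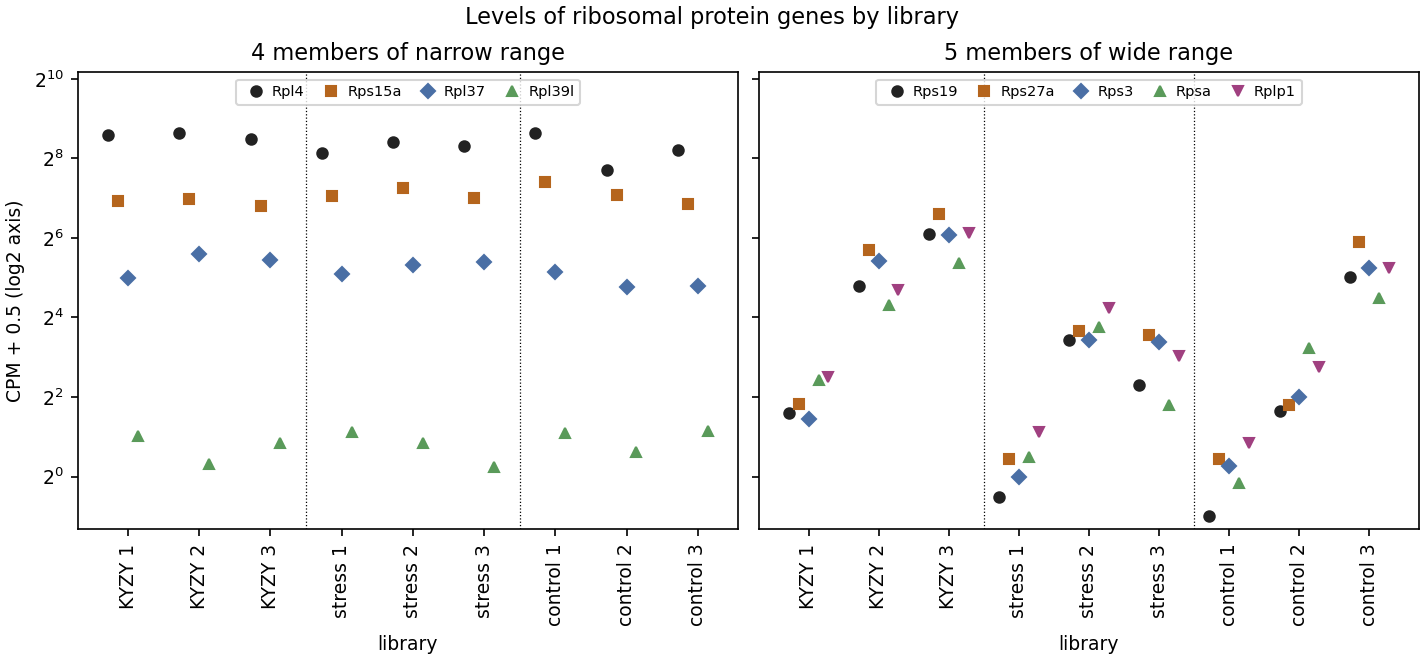
CPM + 0.5 on a log2 axis for 4 members of narrow range (left) and 5 of wide range (right) in each of the 9 libraries; each point is 1 library of 1 mouse. The points on the left stay level, while those on the right are highest in KYZY 3, and Rps19 reaches 68.4 CPM there and 0 CPM in control 1.

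Range and level were loosely tied. The 22 members with the highest mean level, from 26.7 to 330 CPM, had a median range of 1.86, against 3.43, 3.94 and 3.32 in 3 bins of 22, 21 and 21 members from the lowest level upward. The Spearman correlation of mean CPM with range was -0.25 across 86 members and -0.34 across the 84 members of at least 1 CPM, as a description of genes that share the same 9 libraries. Transcript length and range had a Spearman correlation of -0.015 across members. The 30 members that hold a small nucleolar RNA gene within their span had a median range of 3.07 and a median level of 23.8 CPM, and the 56 others had 3.23 and 10.1 CPM. Members with a pyrimidine run of at least 8 over the start had a median range of 2.98 (15 members), and those without one 3.21 (50 members).

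**Figure D2:**
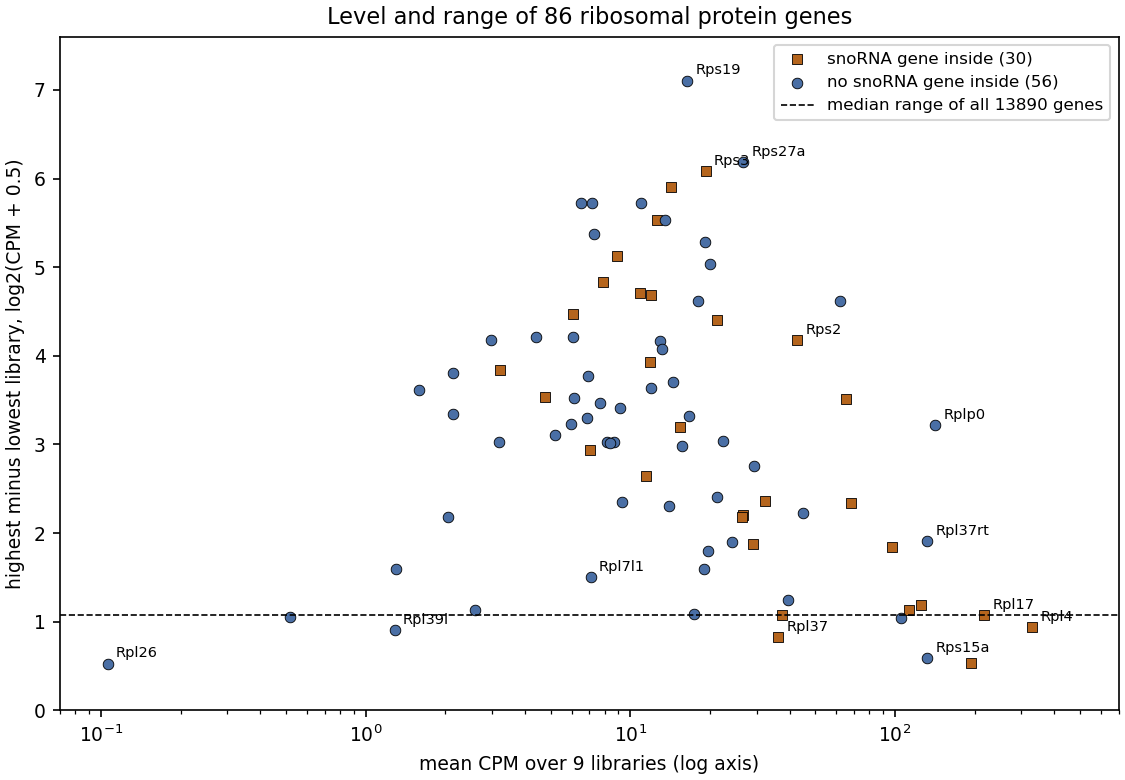
Mean CPM over 9 libraries (log axis) against the range in log2(CPM + 0.5) for each of 86 ribosomal protein genes, with squares for genes that hold a small nucleolar RNA gene and circles for the others; the dashed line is the median range of all 13890 genes, 1.08. Most points lie above the line, and Rpl4 and Rps15a lie under it at high levels.

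Most members were high in the same libraries. The median CPM of the 86 members was 3.98, 22.8 and 41.5 in the KYZY libraries, 2.45, 8.34 and 7.88 in the stress libraries, and 2.80, 4.32 and 23.1 in the control libraries. KYZY 3, control 3 and KYZY 2 were the 3 highest libraries for 67 members (77.9%) and for 11.5% of all genes, a set of libraries noted after the values were seen. KYZY 3 was the highest library for 73 members (84.9%) and for 15.6% of all genes. The lowest library was stress 1 for 37 members and control 1 for 29, that is for 43% and 33.7% of members and for 9.16% and 18.6% of all genes. The groups overlapped in these medians, and KYZY 1 lay below control 2, stress 2 and stress 3.

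The sum over all 88 members varied less than the median, and the leading genes stayed level. It was 2125, 3601 and 5090 CPM in the KYZY libraries, 1752, 2568 and 2340 CPM in the stress libraries, and 2288, 1804 and 3461 CPM in the control libraries. The 5 members of highest mean CPM summed to 756 to 1195 CPM in every library, with the lowest and the highest sum both in the control group. The other 83 members summed to 1067, 2529 and 3947 CPM in the KYZY libraries, 847, 1520 and 1331 CPM in the stress libraries, and 1093, 1048 and 2521 CPM in the control libraries. The 5 leading members thus held 22.5% of ribosomal protein counts in KYZY 3 and 52.2% in control 1.

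Members were also more alike in level in the libraries where they were high. The ratio of the upper to the lower quartile of members, in CPM per kilobase, was 7.71, 3.39 and 2.69 in the KYZY libraries, 17.1, 5.72 and 3.73 in the stress libraries, and 14.8, 7.48 and 2.92 in the control libraries. In KYZY 3 and control 3, 2 members each were below 1 CPM, and in stress 1 and control 1, 24 and 23 members were. At least 10 CPM was reached by 75 members in KYZY 3, 26 in stress 1 and 28 in control 1.

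**Figure D3:**
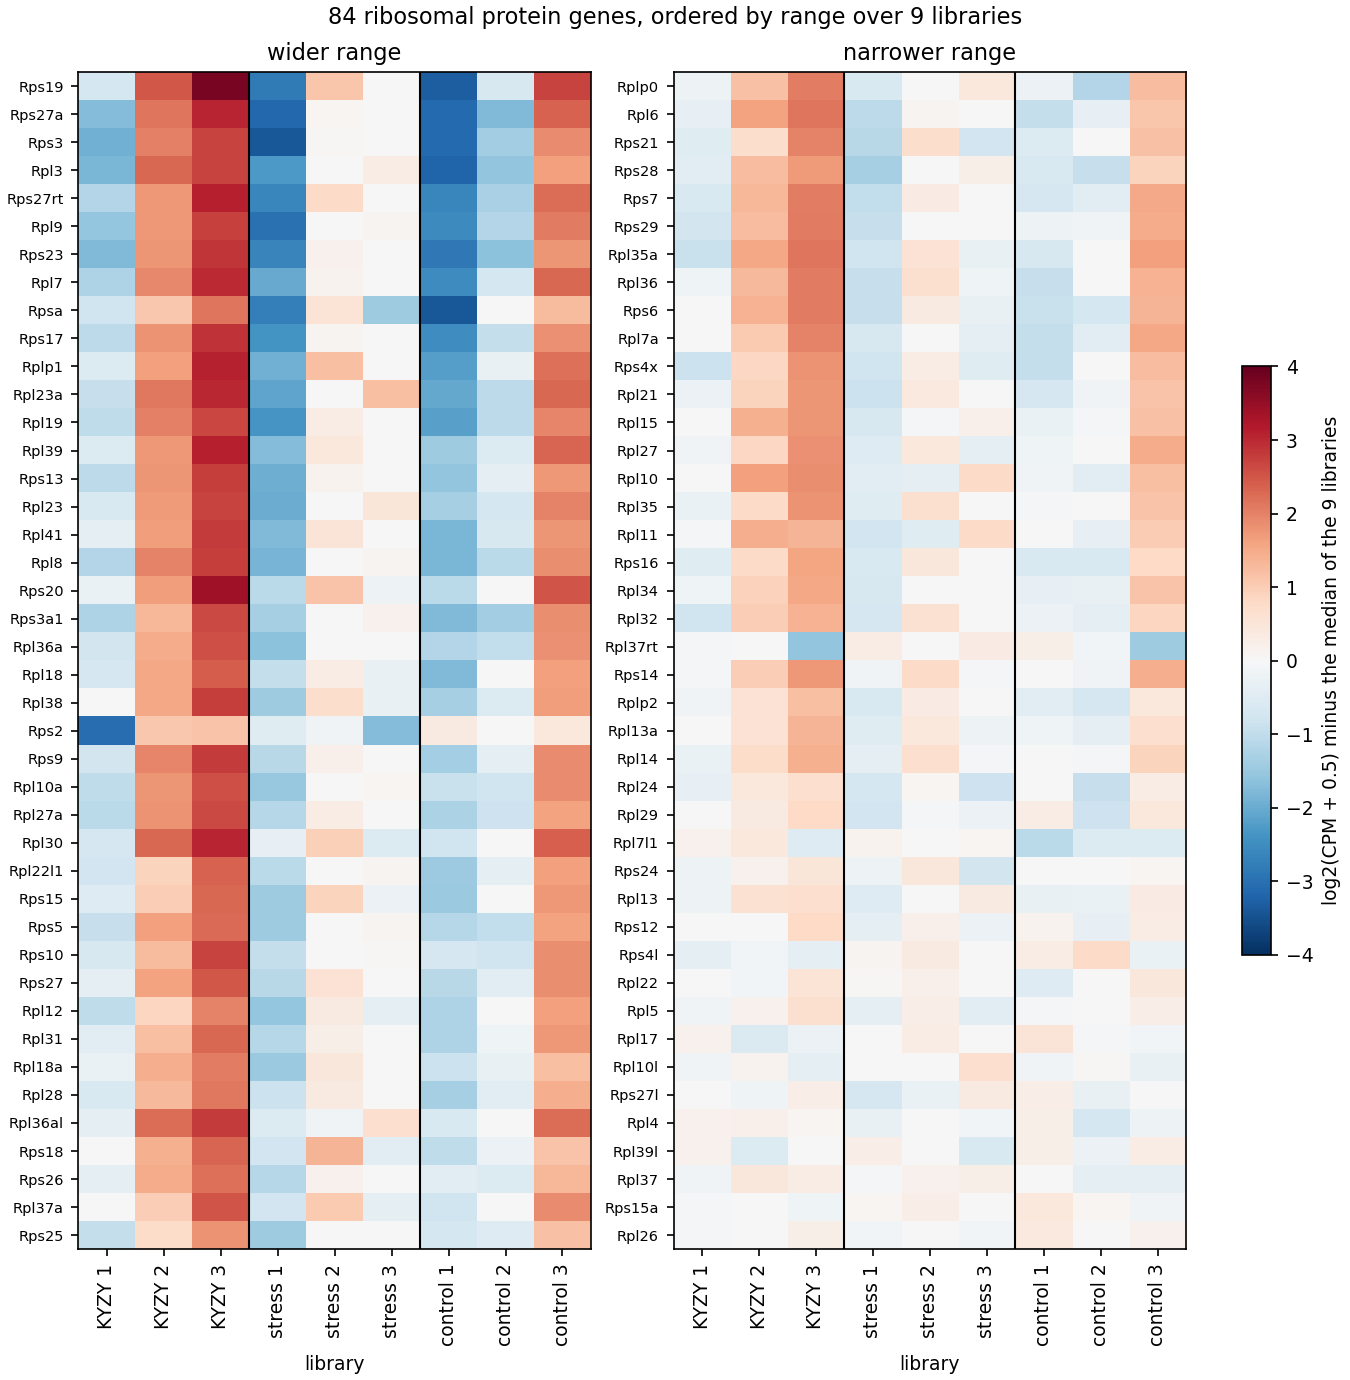
Each row is 1 of 84 ribosomal protein genes and each column 1 library; the colour is log2(CPM + 0.5) minus the median of that gene over the 9 libraries, red for above and blue for below, cut at 4 in either direction. The columns of KYZY 2, KYZY 3 and control 3 are red for most of the genes, and the lowest rows at the right, such as Rps15a, show little colour.

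Markers of cumulus and granulosa cells, which surround the oocyte until hyaluronidase frees it, were high in the same libraries. The mean log2(CPM + 0.5) of the 34 markers listed was 0.30, 2.40 and 2.30 in the KYZY libraries, -0.02, 0.35 and 1.38 in the stress libraries, and -0.04, 0.30 and 1.65 in the control libraries. Their summed level was 768 to 1867 CPM in KYZY, 699 to 1448 CPM in stress and 624 to 924 CPM in control libraries, but Serpine2 and Sdc1 alone held 44.2% to 96.9% of it. The other 32 markers summed to 39.3, 458 and 748 CPM in the KYZY libraries, to 21.6, 36.7 and 97.2 CPM in the stress libraries, and to 24.3, 42.1 and 394 CPM in the control libraries. At 0 were 13, 4 and 2 of the 34 markers in the KYZY libraries, 21, 9 and 4 in the stress libraries, and 21, 14 and 2 in the control libraries, and Pgr and Areg were at 0 in all 9. The 4 libraries of highest marker score, KYZY 2, KYZY 3, control 3 and stress 3, included the 3 with the highest members. Stress 2 had a low marker score and a member median of 8.34 CPM, near the 7.88 CPM of stress 3, whose score was high. The stroma and endothelium markers were also highest in KYZY 3 and control 3, at a mean log2(CPM + 0.5) of 2.06 and 1.80, and between -0.20 and 0.52 in the other libraries, KYZY 2 among them. The oviduct epithelium markers had 2.2005 in KYZY 3, 1.99 in control 3 and 0.63 to 0.98 in the other libraries, and the blood and immune markers 0.41 in KYZY 2 and -0.84 to -0.20 in the others. The part of these 3 lists in the members' levels was not tested.

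**Figure D4:**
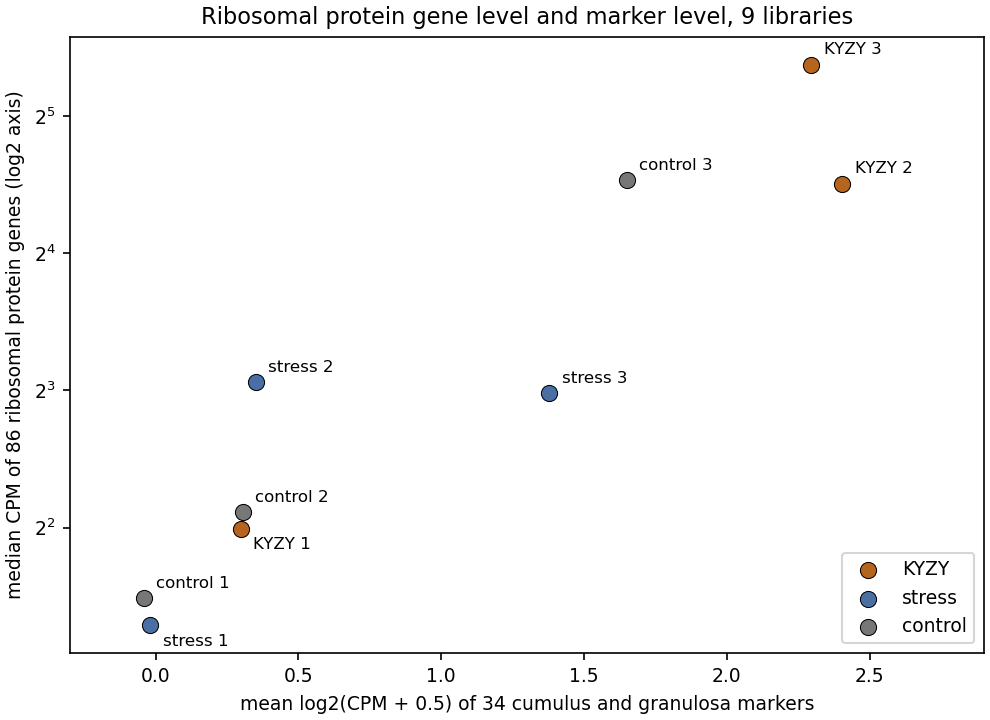
Mean log2(CPM + 0.5) of 34 cumulus and granulosa markers against the median CPM of 86 ribosomal protein genes (log2 axis), 1 point per library, coloured by group. KYZY 3, KYZY 2 and control 3 lie at the upper right and stress 1 and control 1 at the lower left.

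The comparison of KYZY with stress asked what differed in oocytes of stressed mice after the decoction. Most ribosomal protein genes were higher in the KYZY libraries by their fitted values, but none passed the test. The median fitted log2 fold change was 1.47 among members and 0.01 among all genes, and the median standard error of a member was 0.85. A fold change above 0 was fitted for 80 of 86 members (50.8% of all genes) and one of at least 2-fold higher for 62 members, 72.1% of members beside 14.6% of all genes. By edgeR's quasi-likelihood test with Benjamini-Hochberg adjustment over 13890 genes, 0 members were called, as for 0% of all genes. At an unadjusted p under 0.05 there was 1 member, Rpl15 (3.98% of all genes), and DESeq2 and limma voom also called 0 members.

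Rpl15, a large subunit protein whose human gene is also mutated in Diamond-Blackfan anaemia, had 13.6, 37.0 and 47.6 CPM in the KYZY libraries and 8.55, 13.1 and 15.7 CPM in the stress libraries. Its lowest KYZY library lay between its stress libraries, so the groups overlapped. The fitted log2 fold change was 1.40 with a standard error of 0.53 (edgeR adjusted p = 0.935). Rpl6, Rpl34 and Rps26, also among the members of smallest p, had log2 fold changes of 1.76, 1.40 and 1.72 (edgeR adjusted p = 0.935 each), and of 1.25, 0.88 and 1.13 without KYZY 3. The KYZY and stress groups did not overlap in 4 members. They were Rpl4 and Rpl29, higher in KYZY (2.33% of members, 3.76% of all genes), and Rps15a and Rps4l, lower in KYZY (2.33%, 5.44% of all genes). Rpl4 averaged 379 ± 20.02 CPM in KYZY and 312 ± 31.0 CPM in stress libraries (SD, n = 3 each), a log2 fold change of 0.28 with a standard error of 0.26. Rps15a averaged 120 ± 7.09 CPM in KYZY and 138 ± 13.1 CPM in stress libraries (SD, n = 3 each), a log2 fold change of -0.20 with a standard error of 0.20.

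With the cumulus marker score as a covariate the median of members in KYZY against stress was -0.088. Without control 3, stress 3, KYZY 2 and KYZY 3 it was -0.36, where KYZY 1 stands alone for its group and is assumed to vary like the others. This left-out set holds KYZY 2, KYZY 3 and control 3, the libraries where most members were highest. A fall of the median was thus built into the choice and tells nothing about its cause. Without KYZY 3 alone the median was 0.88.

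The comparison of KYZY with control set treated stressed mice against unstressed ones. The control libraries of this comparison are those of stress against control, and the KYZY libraries those of the comparison above, so the comparisons are not independent. The median log2 fold change was 0.86 among members and -0.00 among all genes. A fold change above 0 was fitted for 79 members (49.7% of all genes), and 37 members were at least 2-fold higher, 43% of members beside 10.3% of all genes. By edgeR 0 members were called (0% of all genes), 2 had an unadjusted p under 0.05 (2.74% of all genes), and DESeq2 and limma voom called 0. Without KYZY 3 the median was 0.23, without control 3 it was 1.98, and with the marker score as a covariate it was -0.19. Without the 4 libraries of highest marker score it was 0.17, where KYZY 1 again stands alone for its group.

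Rpl7l1 and Rpl37 were the 2 members with the smallest p in KYZY against control. Rpl7l1, a paralog of Rpl7, was at 8.95, 10.8 and 5.37 CPM in the KYZY libraries and at 3.47, 5.21 and 5.14 CPM in the control libraries. Every KYZY library was above every control library, which held for no other member (1.16% of members, 2.43% of all genes). The log2 fold change was 0.86 with a standard error of 0.29 (edgeR adjusted p = 0.996). Rpl37 was at 31.5, 47.9 and 43.1 CPM in the KYZY libraries and at 34.7, 26.8 and 27.1 CPM in the control libraries, with KYZY 1 below control 1. Its log2 fold change was 0.47 with a standard error of 0.21 (edgeR adjusted p = 0.996).

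The comparison of stress with control asked what weeks of stress change in oocytes. Most members were lower in stress by their fitted values, and again none passed the test. The median log2 fold change was -0.65 among members and -0.03 among all genes, with a median standard error of 0.84 among members. A fold change below 0 was fitted for 77 members (54% of all genes), and 17 members were at least 2-fold lower, 19.8% of members beside 8.57% of all genes. By edgeR 0 members were called (0% of all genes), 1 had an unadjusted p under 0.05 (2.69% of all genes), and DESeq2 and limma voom called 0. Control 3 decided the direction: without it the median of members was 0.46, and without all 4 libraries of highest marker score it was 0.39. With the marker score as a covariate the median was -0.07, and by limma voom with sample weights it was -0.04.

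The member with the smallest p was Rpl7l1, which went against the median. It was at 8.64, 7.83 and 8.27 CPM in the stress libraries and at 3.47, 5.21 and 5.14 CPM in the control libraries, with no overlap of the groups (1.16% of members, 3.51% of all genes). The log2 fold change was 0.84 with a standard error of 0.29 (edgeR adjusted p = 1.00). Its control values are those of the comparison with KYZY, and in the KYZY libraries it was at 8.95, 10.8 and 5.37 CPM. Rps2, a protein beside the mRNA entry channel, was at 27.3, 34.5 and 11.2 CPM in the stress libraries and at 49.3, 38.4 and 51.2 CPM in the control libraries, the only member lower in stress without overlap (1.16% of members, 4.38% of all genes). Its log2 fold change was -0.93 with a standard error of 0.92. In KYZY 1, 2 and 3 Rps2 was at 4.25, 82.2 and 85.2 CPM, so that its range within the KYZY group exceeded its difference between the other groups. The other members of smallest p, Rpl37, Rpl27, Rps29 and Rpl26, had log2 fold changes of 0.37, -0.79, -0.92 and -1.68, and without control 3 those of Rpl27 and Rps29 were 0.00 and -0.061.

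**Figure D5:**
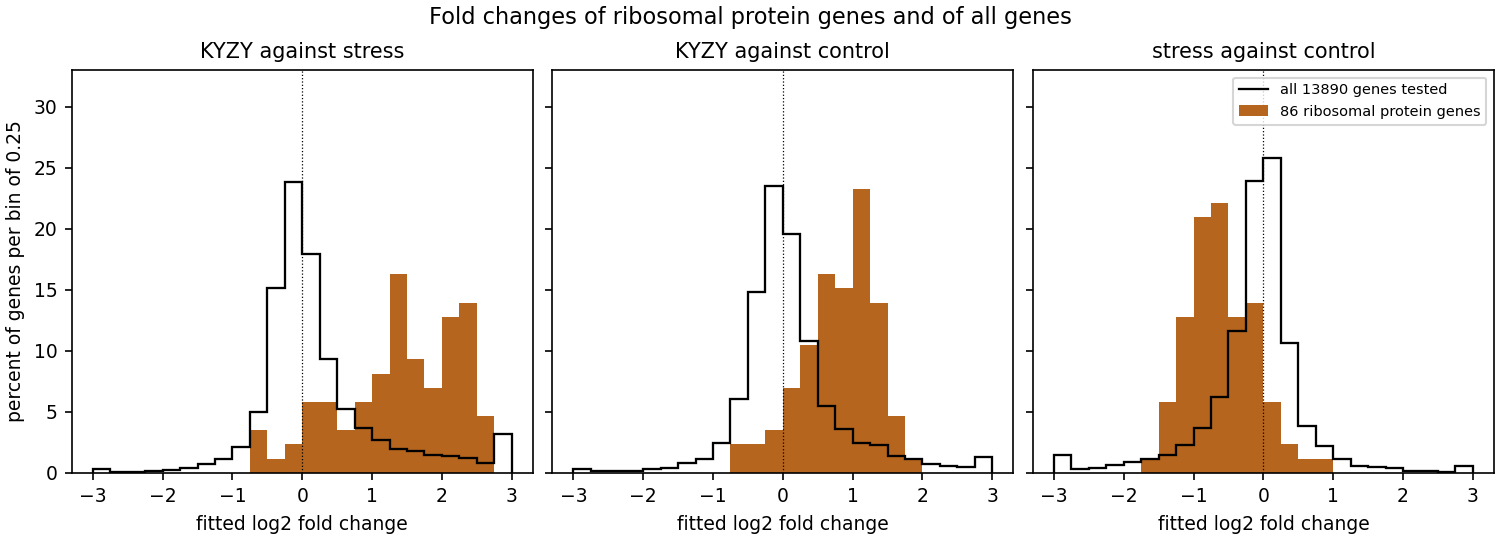
Bars give the percent of 86 ribosomal protein genes and the outline the percent of all 13890 genes in bins of 0.25 of the fitted log2 fold change, for each comparison; the outermost bins also hold all values beyond 3. The bars lie to the right of the outline in both KYZY comparisons, with medians of 1.47 and 0.86, and to its left in stress against control, with a median of -0.65.

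The stalk proteins and Rpsa were highest in KYZY 3, like most members. Rplp0, which anchors the stalk to the large subunit, was at 79.4, 209 and 376 CPM in the KYZY libraries, at 60.4, 91.5 and 122 CPM in the stress libraries and at 78.2, 39.9 and 216 CPM in the control libraries. Rplp1 was at 5.13, 25.2 and 69.6 CPM in the KYZY libraries, at 1.67, 18.3 and 7.73 CPM in the stress libraries and at 1.31, 6.21 and 37.7 CPM in the control libraries. Rplp2, its partner in the stalk dimer, was at 22.8, 38.0 and 58.7 CPM in the KYZY libraries, at 16.5, 31.7 and 25.4 CPM in the stress libraries and at 18.3, 15.6 and 34.5 CPM in the control libraries. Rplp1 and Rplp2 bind as a pair, yet their ranges were 5.28 and 1.87. Rpsa, a small subunit protein also known as the laminin receptor precursor, was at 4.90, 19.4 and 40.9 CPM in the KYZY libraries, at 0.908, 13.1 and 2.98 CPM in the stress libraries and at 0.397, 8.89 and 22.0 CPM in the control libraries. The groups overlapped for all 4 genes, and the log2 fold changes in KYZY against stress were 1.28 for Rplp0, 1.85 for Rplp1, 0.70 for Rplp2 and 1.94 for Rpsa.

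Paralogs and retrocopies did not share one pattern. Of the 9 paralogs listed, 8 were tested, and 5 had fold changes above 0 in KYZY against stress, 6 in KYZY against control and 2 in stress against control, with medians of 0.10, 0.45 and -0.23. Rps27l, a p53-induced paralog of Rps27, was at 107.2, 96.1 and 130 CPM in the KYZY libraries, at 66.5, 89.4 and 138 CPM in the stress libraries and at 128, 87.2 and 108 CPM in the control libraries. Rps27 itself was at 0.347, 2.83 and 5.63 CPM in the KYZY libraries, at 0, 1.13 and 0.590 CPM in the stress libraries and at 0, 0.315 and 3.45 CPM in the control libraries. Rps27l was the higher of the pair in every library, and per kilobase it averaged 211.7 CPM against 4.61 CPM for Rps27. The retrocopy Rps27rt has a coding sequence identical to that of Rps27 at 252 of 252 bases, and reads of the coding part cannot be told apart. The split of counts between Rps27 and Rps27rt, and with it the level of Rps27 beside Rps27l, is therefore uncertain. Rps27rt was at 0.853, 9.66 and 25.9 CPM in the KYZY libraries, at 0, 4.74 and 2.58 CPM in the stress libraries and at 0, 0.745 and 13.9 CPM in the control libraries. Rps27l shares 76.2% of the coding bases of Rps27, and the first 60 coding bases are shown with the differing ones in capitals.
Rps27l: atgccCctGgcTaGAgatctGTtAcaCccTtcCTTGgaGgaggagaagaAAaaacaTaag
Rps27: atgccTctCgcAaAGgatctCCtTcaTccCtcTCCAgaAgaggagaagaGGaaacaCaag
With 18 differences among these 60 bases, reads of this stretch differ between Rps27l and Rps27, and not between Rps27rt and Rps27.

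Rpl37rt went against most members. It was at 139, 147 and 47.4 CPM in the KYZY libraries, at 178, 144 and 179 CPM in the stress libraries and at 169, 132 and 53.8 CPM in the control libraries. Its lowest libraries were KYZY 3 and control 3, where the members' median was highest, while KYZY 2 was not low. Rpl37rt matches the coding sequence of Rpl37 at 290 of 291 bases. The 60 bases around the only mismatch are shown, with that base in capitals.
Rpl37rt: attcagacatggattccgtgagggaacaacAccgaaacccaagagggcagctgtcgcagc
Rpl37: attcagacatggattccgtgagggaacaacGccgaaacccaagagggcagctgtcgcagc
Reads of the coding part that miss this base fit both genes, so the split of counts between Rpl37rt and Rpl37 is uncertain.

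Of the remaining paralogs, Rpl36al had a mean level of 17.4 CPM per kilobase, above the large subunit median and above the 12.6 of Rpl36a. That level rests on the shortest principal transcript of Rpl36al, of 526 bases, and its longest has 1276. The transcript of Rpl36a has 483 bases, so this order depends on the transcript taken. Rpl10l, Rpl39l, Rps4l and Rpl22l1 had lower levels per kilobase, of 0.504 to 3.86. Rpl10l and Rpl39l, known from male germ cells as stand-ins for the X-linked Rpl10 and Rpl39, were at 0.265 to 1.09 CPM and at 0.683 to 1.72 CPM, with ranges of 1.05 and 0.91. Rpl10 and Rpl39 were at 29.6 to 151 CPM and at 0.564 to 29.7 CPM, with ranges of 2.33 and 4.83. Both were thus of narrower range than their partners, at levels where the added 0.5 CPM narrows a range. Rpl36al, the autosomal copy of X-linked Rpl36a, was at 2.08 to 26.9 CPM and Rpl36a at 0.662 to 21.1 CPM, each lowest in control 1 or stress 1 and highest in KYZY 3. Rpl22l1 was at 0.0992 to 7.90 CPM, and Rpl22 at 11.1 to 24.1 CPM, with ranges of 3.81 and 1.08. An exon of Rpl22l1 is overlapped by a gene on the other strand, and counting was not stated to use strand, so its reads cannot be told from those of that gene. Rps4l, a pseudogene by annotation, was at 1.75 to 4.43 CPM, with all KYZY libraries below all stress libraries, while Rps4x was at 10.9 to 76.8 CPM. The log2 fold change of Rps4l in KYZY against control was -0.72 with a standard error of 0.34 (edgeR adjusted p = 0.996), and -0.38 without control 2.

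Fau and Rack1 belong to the cytosolic ribosome, and their names fall outside the rule. Fau, a ribosomal protein fused to a ubiquitin-like one, was at 35.6, 99.2 and 124 CPM in the KYZY libraries, at 26.1, 49.0 and 48.5 CPM in the stress libraries and at 42.7, 26.9 and 77.3 CPM in the control libraries. It was highest in KYZY 3, KYZY 2 and control 3, like most members. Rack1, a signalling scaffold on the small subunit, was at 55.4, 54.9 and 61.9 CPM in the KYZY libraries, at 54.5, 74.5 and 43.9 CPM in the stress libraries and at 69.9, 66.6 and 51.9 CPM in the control libraries, with no such order.

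Other genes of the translation machinery had smaller median fold changes. By edgeR none of the lists below held a gene with an adjusted p under 0.05 (0% of all genes), while at an unadjusted p under 0.05 each list had 0 to 6 genes per comparison. The 6 were among 161 ribosome biogenesis factors in KYZY against stress, where 3.98% of all genes had such a p, beside 2.74% in KYZY against control and 2.69% in stress against control. Among 35 other TOP mRNAs, which share the pyrimidine start with the members and include Fau and Rack1, 31 had fold changes above 0 in KYZY against stress, 30 in KYZY against control and 11 in stress against control (50.8%, 49.7% and 46% of all genes), with medians of 0.35, 0.41 and -0.12. The median of the 86 members was larger in size in each comparison, at 1.47, 0.86 and -0.65. Eef1a1, the elongation factor that carries aminoacyl-tRNA, averaged 1282 ± 167 CPM in KYZY and 861 ± 241 CPM in control libraries (SD, n = 3 each), a log2 fold change of 0.58. Eef2, the translocation factor, averaged 470 ± 41.6 CPM in KYZY and 349 ± 61.5 CPM in control libraries (SD, n = 3 each), a log2 fold change of 0.43. Naca, of the nascent chain complex, averaged 114 ± 56.6 CPM in KYZY and 63.5 ± 9.38 CPM in stress libraries (SD, n = 3 each). Eef1d, an exchange factor subunit, averaged 7.52 ± 3.04 CPM in KYZY and 4.42 ± 0.732 CPM in stress libraries (SD, n = 3 each).

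Among 21 elongation and termination factors, 14, 13 and 9 had fold changes above 0 in KYZY against stress, KYZY against control and stress against control, with medians of 0.17, 0.18 and -0.04. Among 39 genes of TOP regulation and mTORC1, 23, 23 and 20 did, with medians of 0.03, 0.07 and 0.00. Larp1, which binds TOP mRNAs, was low, at 1.096 ± 0.284 CPM in KYZY and 0.367 ± 0.247 CPM in stress libraries (SD, n = 3 each), a log2 fold change of 1.58 with a standard error of 0.68. Tsc2, which restrains mTORC1, averaged 17.3 ± 0.998 CPM in stress and 12.2 ± 2.10 CPM in control libraries, and its complex partner Tbc1d7 1.25 ± 0.285 CPM in stress and 2.37 ± 0.574 CPM in control libraries (SD, n = 3 each).

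Among 161 ribosome biogenesis factors, which assemble the members with ribosomal RNA, 67, 63 and 77 had fold changes above 0 in KYZY against stress, KYZY against control and stress against control. The medians were -0.04, -0.10 and -0.01, near those of all genes. Polr1a, the largest subunit of RNA polymerase I, averaged 16.1 ± 4.46 CPM in KYZY and 36.5 ± 15.9 CPM in control libraries (SD, n = 3 each), a log2 fold change of -1.18 with a standard error of 0.35. Twistnb, another subunit of that polymerase, averaged 21.3 ± 2.92 CPM in KYZY and 12.2 ± 0.698 CPM in stress libraries (SD, n = 3 each), a log2 fold change of 0.81. Fbl, the fibrillarin of box C/D particles, averaged 2.34 ± 0.277 CPM in stress and 4.49 ± 1.11 CPM in control libraries (SD, n = 3 each), a log2 fold change of -0.94. Among 11 hibernation and dormancy factors, 7, 8 and 6 had fold changes above 0 in the same order, with medians of 0.02, 0.16 and 0.00. Ccdc124, known to sit on idle ribosomes, averaged 3.56 ± 0.316 CPM in KYZY and 5.40 ± 1.24 CPM in control libraries (SD, n = 3 each), a log2 fold change of -0.60.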

How the data were processed

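RNA was measured in 9 oocyte libraries by SMART-Seq v4 cDNA synthesis and Tn5 tagging, without molecular identifiers or strand. The deposited tables hold expected counts, 1 table per library, estimated by the authors and not normalized; the files name no unit, which was inferred from the whole-number values and the tools named. The submitters' processing notes name bcl2fastq 2.20, Trim Galore, HISAT2, StringTie, DESeq2, GRCm38 and mm10, with no roles. Counting of reads that fit several genes is not given in the sources used here, and many ribosomal protein genes have processed pseudogenes. Because values of 4 and 8 are over-represented, a read pair appears to be worth about 4 counts. The floor was set at 3 read pairs, 12 counts, or 0.105 to 0.245 CPM per library, for counting error only.

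The test on these counts, which are already whole, was that of edgeR 4.0.16 (R 4.3.3): filterByExpr (minimum count 10, minimum total 15), TMM scaling, and a quasi-likelihood fit with 1 mean per group over 9 libraries (6 residual degrees of freedom, 2-sided, Benjamini-Hochberg adjustment over 13890 genes, threshold 0.05). Alternatives used DESeq2 1.42.0, limma voom 3.58.1, other scalings and filters, left-out libraries, a marker covariate and a replicate block. Deviations of same-numbered stress and control libraries from their group means had r = 0.21, 0.33 and 0.35 over genes. Between stress and control libraries of different number r ran from -0.43 to 0.33. Same-numbered KYZY libraries 1, 2 and 3 had r = 0.37, -0.20 and 0.12 with stress, and 0.56, -0.12 and 0.63 with control libraries. Whether equal numbers mark a pair was not tested.

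Levels per kilobase use the shortest principal transcript of GENCODE M21. Start regions are from RefSeq (GRCm38.p6). Coding sequences were aligned with Biopython 1.88. Named were the 5 members of highest level per kilobase in each subunit, the 5 of smallest p per comparison, stalk proteins and Rpsa, paralogs, the 3 widest and 3 narrowest ranges, those dropped, and for other lists genes from the 2 of smallest p. Some genes that meet these rules are not reported here. Other members were named after their values were seen. The members and lists were chosen with earlier results of these data known.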

Additional observations from a re-analysis of the deposited data

How the results depend on the processing

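Of 423 alternative values over the 3 counts of called members, the 3 medians and the named members, 417 kept their direction or moved by less than the spread, 4 moved and 2 reversed. The spread used for medians, the pooled SD between libraries of a group, was 1.47 on the log2 scale, so that sign changes of medians within it are not among those 6. Without control 3, stress 3, KYZY 2 and KYZY 3, the median in KYZY against stress was -0.36, and Rpl27 in stress against control was 0.14. KYZY 1 then stands alone for its group. The counts of called members moved there in both KYZY comparisons, but they rest on that library and are not given. With the cumulus marker score as a covariate the median in KYZY against stress was -0.088. Rpl27 in stress against control was 0.00099 without control replicate 3, the highest of its values with 1 library left out, and -1.20 without stress replicate 2, the lowest. The cause of these changes was not tested. Leaving out 1 library at a time gave 0 called members in every comparison, and medians from 0.88 to 1.94 in KYZY against stress, from 0.23 to 1.98 in KYZY against control and from -1.01 to 0.46 in stress against control. With the replicate block over all libraries the medians were 1.22, 0.96 and -0.24, and -0.26 in stress against control with only those 2 groups, with 0 members called in each, so that the block changed no call. Other scalings gave medians from 1.47 to 1.54, 0.77 to 0.90 and -0.80 to -0.65. Few libraries of wide spread, and about 4 counts per read pair, limit what low members can show.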
